A study of Mus musculus with 33 samples.

Results

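Splice events of mouse cardiac myocytes were examined for a change of the Rbfox2 knockout effect between 5 and 18 weeks of age. The knockout (KO) effect at an age is the KO minus wild-type (WT) difference in the log2 ratio of long to short isoform counts of an event, and the quantity tested here is that effect at week 18 minus that effect at week 5. Every event with a mean of at least 20 counts over 18 libraries, and a mean of at least 1 count of each isoform, was tested. That kept 2032 of the 3885 events in the table, from 1650 genes, and 1961 of them were cassette exons, exons that are either included or skipped. For each event the change with age was also tested in WT and in KO alone, so that the side that moved could be named. The series holds 33 samples, and the RASL-seq ones used here were labelled as cardiac myocytes from hearts of WT and RBFox2 KO mice on a Black Swiss background, at 5, 9 and 18 weeks. In RASL-seq, oligonucleotides annealed to the RNA on either side of a splice junction are joined by a ligase, amplified and counted. Each of the 6 groups had 3 numbered libraries. Whether the libraries are separate animals is not labelled, so p-values measure the spread between libraries. The deleted part of Rbfox2 and the cells in which it was deleted are not labelled either.

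Rbfox2 belongs to a small family of RNA-binding proteins that bind a short motif beside alternative exons and promote their inclusion or skipping, depending on which side of the exon they bind. In the heart, many cassette exons of cytoskeletal, trafficking and RNA-binding genes shift between fetal and adult forms after birth, and Rbfox and muscleblind proteins are among the regulators of that shift. A KO effect can therefore grow with age because KO myocytes change, because WT myocytes change, or because both do, and the values below were read for each side separately. For a cassette exon the long isoform was read as the one that includes the exon.

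The knocked-out gene was checked first, by the total of its most counted event (Rbfox2 7670) per 1000000 counts of the library (CPM). WT libraries held 310.0, 227 and 202 CPM at week 5 and 299, 338 and 295 at week 18. KO libraries held 41.3, 44.8 and 93.2 at week 5 and 44.4, 19.1 and 18.0 at week 18. The genotypes did not overlap, and the KO groups overlapped each other. The least counted Rbfox2 event (8797) did not separate the genotypes in this way, with 5.54 to 6.69 CPM in WT and 3.07 to 6.19 in KO at week 5, and 3.22 to 5.04 against 1.50 to 3.99 at week 18. The drop of Rbfox2 in KO was not shown to differ between the ages for event 7670 (log2 difference of the event total -1.52, SE 0.56, edgeR adjusted p = 0.308). Event 8783 gave -1.48 (SE 0.62, adjusted p = 0.390) and event 8797 gave -0.17 (SE 0.52, adjusted p = 0.956). Means of event 8783 were 23.3 CPM at week 5 and 11.4 at week 18 in KO, and 85.0 and 113 in WT. These p-values are adjusted over all events tested, and an equal drop at both ages was not shown either. Library totals ran from 1998027 to 12876511 counts. Of the 6 cell types whose markers were listed, 5 had 1 marker gene each in the table. The myocyte gene Ttn gave 24026 to 69092 CPM over the 12 libraries of weeks 5 and 18. The endothelial gene Pecam1 gave 5204 to 9908 CPM in WT at week 5 and 3080 to 3516 at week 18, and in KO 5169 to 9658 and then 2224 to 2906. The fibroblast gene Postn gave 12.8 to 47.3 and then 5.99 to 7.57 CPM in WT, and 25.3 to 53.4 and then 9.63 to 22.02 in KO. Myh11, of smooth muscle, gave 80.9 to 105 and then 44.5 to 56.2 CPM in WT, and 119 to 159 and then 57.1 to 104 in KO. Cd44, of leukocytes, had no count in any library. Fewer cells of a type and less RNA per cell cannot be told apart in such bulk samples, and the part of these shifts in the results below was not tested.

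The KO effect differed between the ages for 16 events of 15 genes, all cassette exons. These were 0.787% of the events tested (edgeR's quasi-likelihood test, Benjamini-Hochberg adjusted p under 0.05 over all 2032 events, as for every adjusted p below). The difference was towards the long isoform in KO for 11 (0.541%) and towards the short isoform for 5 (0.246%). Without adjustment, 247 events had a p under 0.05. The 16 differences had sizes from 1.46 to 8.45 on the log2 scale, the upper end being the fit of Nrap over a group at 0 counts, and the median size over all events tested was 0.61. The median of the signed difference over all events was 0.107. In share of counts, 13 of the 16 shifted by at least 10 percentage points, but so did 332 events that did not pass. The median standard error of the difference was 0.69 over all events and 0.45 over the 16.

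The WT side moved more often than the KO side among these 16 events. A side was said to have moved where its own change in log2 ratio from week 5 to week 18 passed. A side not named was not shown to be still. WT alone moved for 10 events (Rbm34, Atpbd4, Mll5, Sorbs2, Phka1, Nexn, Dnm1l, Nrap, Itga6 and Mbnl1). KO alone moved for 3 (Prrc2c, 1700012B15Rik and Mtap4), both moved for 2 (Smek2 and Pb1 event 3769), and neither change passed for Pb1 event 4647. Over all events tested, the WT change passed for 115 (5.66%) and the KO change for 72 (3.54%). Of all 2032 events, 88 moved in WT alone, 45 in KO alone and 27 in both. The changes of the 16 share libraries with the difference that selected them, so these counts describe them and support nothing further. The fitted log2 changes of WT and KO had opposite signs in 15 of the 16, Atpbd4 being the exception. The fitted WT change was the larger in 10, which are the events of WT alone with Pb1 3769 in place of Nrap. In mean long share, KO changed more than WT in Sorbs2 (10.99 against -4.64 percentage points) and in Phka1 (4.02 against -1.31). In the rest of the events named for WT alone, the WT share changed more.

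**Figure D1:**
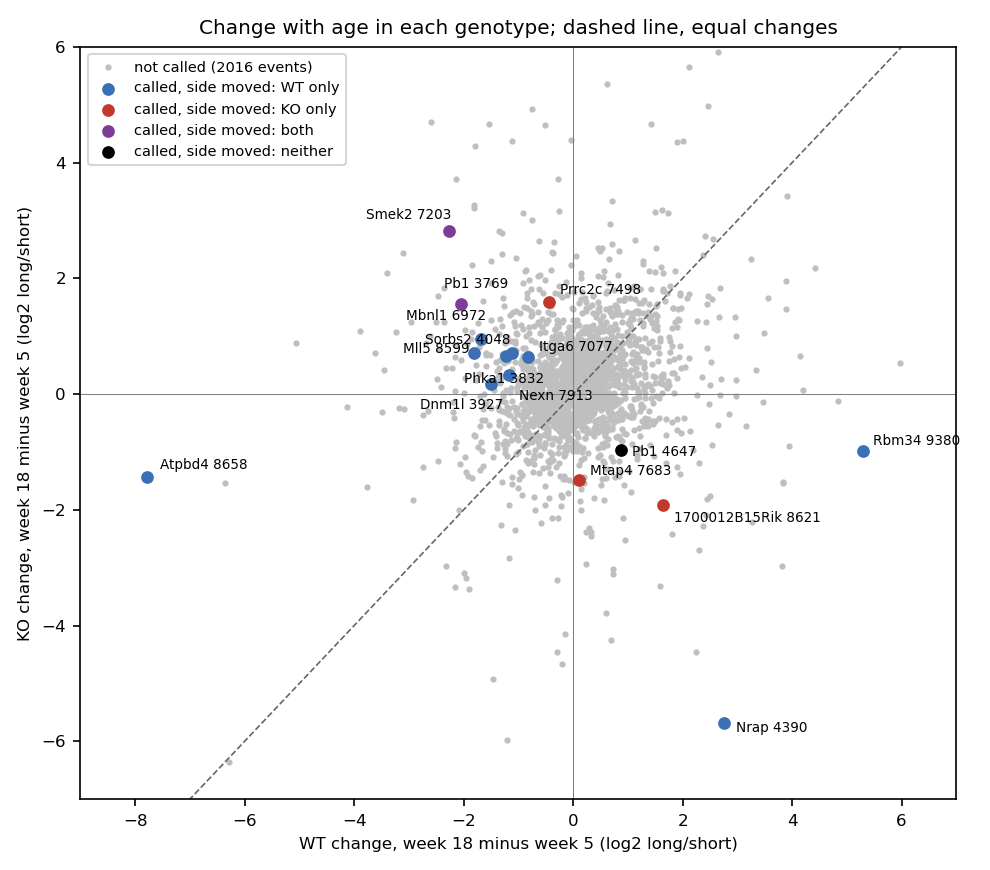
Change of the log2 long to short ratio from week 5 to week 18 in WT (horizontal axis) and in KO (vertical axis) for the 2032 events tested, with the 16 events whose KO effect differed coloured by the side that moved. On the dashed line both genotypes changed alike. In 15 of the 16 the fitted changes had opposite signs, but both changes passed in only 2. The 16 were chosen by the difference of these changes, which favours opposite signs.

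Of genes of the cytoskeleton and the sarcomere, only the WT change passed in Sorbs2 and Nexn, and only the KO change in Mtap4. Sorbs2 encodes an adaptor that links actin and vinculin to the Z disc. The long share of its event 4048 was 6.57%, 10.4% and 9.71% in the WT libraries of week 5 and 3.95%, 4.38% and 4.45% at week 18. In KO it was 61.5%, 59.0% and 60.01% at week 5 and 66.05%, 73.4% and 74.0% at week 18. Every WT library of week 18 lay below those of week 5, and every KO library above. The difference was 1.83 (log2, SE 0.36, adjusted p = 0.0145). WT fell by 1.11 (adjusted p = 0.0147), while the KO change of 0.72 did not pass (adjusted p = 0.128).

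Nexn encodes nexilin, an actin-binding protein of the Z disc. WT libraries gave a long share of 78.1%, 68.8% and 69.5% at week 5 for its event 7913, and 52.4%, 54.3% and 54.3% at week 18. KO libraries gave 83.0%, 83.0% and 87.6%, and then 85.7%, 88.4% and 88.0%. The WT groups did not overlap and the KO groups did. The KO effect went from 1.08 to 2.59 in log2 ratio, a difference of 1.51 (SE 0.31, adjusted p = 0.0179), or 21.3 ± 3.52 percentage points (± SE, 3 libraries per group). The WT change was -1.18 (adjusted p = 0.00276).

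Mtap4 is the table's name for Map4, a microtubule-associated protein. Its event 7683 had a long share of 79.6%, 83.8% and 75.7% in WT at week 5 and 82.1%, 80.8% and 80.4% at week 18. KO libraries gave 29.3%, 33.1% and 40.2% at week 5 and 15.2%, 17.8% and 14.2% at week 18. WT stayed within its own range while KO dropped below it in every library. The difference was -1.59 (SE 0.35, adjusted p = 0.0330), with a KO change of -1.48 (adjusted p = 0.00267) and a WT change of 0.11 (adjusted p = 0.852).

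Nrap, a nebulin-related anchoring protein of myofibril assembly, passed with almost no long isoform at all. Over the 3 libraries its event 4390 had 7 long of 52471 counts in WT at week 5 and 61 of 65597 at week 18, 15 of 86486 in KO at week 5, and 0 of 75286 in KO at week 18, which allows a share of up to 0.00398%. The WT shares of week 18 (0.143%, 0.0654% and 0.0735%) all lay above those of week 5. The difference in share was -0.0952 ± 0.0270 percentage points. Its fitted log2 difference of -8.45 (SE 1.88, adjusted p = 0.0380) rests on the zeros and sets no bound. The fitted change was 2.76 in WT (adjusted p = 0.0316). In KO it was larger, at -5.69, but did not pass (adjusted p = 0.107) and rests on the same zeros.

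Of the listed splicing regulators, Mbnl1 and Rbm34 passed. Mbnl1 encodes muscleblind-like protein, a splicing regulator of muscle maturation. Its event 6972 had a long share of 12.4%, 35.2% and 31.9% in WT at week 5 and 9.33%, 9.95% and 8.77% at week 18. KO libraries gave 78.0%, 74.2% and 70.2%, and then 77.3%, 86.4% and 89.4%. WT library 1 of week 5 lay far below the others of its group and near the week 9 WT libraries, at 15.5%, 11.9% and 17.4%. The difference was 2.64 (SE 0.62, adjusted p = 0.0432), with a WT change of -1.68 (adjusted p = 0.0315) and a KO change of 0.96 (adjusted p = 0.242).

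Rbm34 encodes an RNA-binding protein, and its event 9380 had the smallest p of all. The long share in WT was 54.4%, 71.1% and 68.9% at week 5, 49.0%, 46.4% and 44.1% at week 9, and 99.0%, 97.8% and 99.0% at week 18. In KO it was 62.3%, 63.1% and 25.97% at week 5 and 58.2%, 20.6% and 25.96% at week 18. The KO groups overlapped widely, and the WT libraries of week 18 stood apart from every other library. The difference was -6.28 (SE 0.92, adjusted p = 0.00191), and the WT change was 5.29 (adjusted p = 0.000194).

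Prrc2c, which encodes a proline-rich coiled-coil protein, was the reverse case, in which the KO change passed and the WT change did not. The long share of event 7498 was 34.6%, 42.4% and 38.7% in WT at week 5 and 30.99%, 29.1% and 34.7% at week 18. KO gave 45.7%, 36.6% and 42.3%, and then 66.3%, 69.1% and 69.1%. At week 5 the genotypes overlapped, and at week 18 every KO library was above every WT library. KO rose by 1.59 (adjusted p = 0.00301), WT changed by -0.43 (adjusted p = 0.401), and the difference was 2.02 (SE 0.39, adjusted p = 0.0145).

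Phka1 encodes a regulatory subunit of phosphorylase kinase, which activates glycogen breakdown. The long isoform of event 3832 was rare in WT, at 1.52%, 2.48% and 2.69% at week 5 and 0.896%, 0.893% and 0.985% at week 18. KO libraries gave 11.2%, 8.20% and 6.29%, and then 10.9%, 13.8% and 12.9%. The WT groups did not overlap and the KO groups did. The difference was 1.89 (SE 0.39, adjusted p = 0.0179), with a WT change of -1.23 (adjusted p = 0.0147).

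Dnm1l encodes the dynamin-related GTPase that divides mitochondria. Event 3927 had a long share of 12.04%, 17.4% and 20.9% in WT at week 5 and 5.67%, 5.93% and 7.98% at week 18. KO gave 65.8%, 59.9% and 58.8%, and then 64.2%, 66.1% and 62.1%. All WT libraries of week 18 lay below those of week 5, while the KO groups overlapped. The difference was 1.67 (SE 0.37, adjusted p = 0.0380), the WT change -1.50 (adjusted p = 0.00254) and the KO change 0.17 (adjusted p = 0.775). Its long counts are also the short counts of Dnm1l event 4328, whose own difference of -1.60 did not pass (adjusted p = 0.145).

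Atpbd4, now Dph6, corresponds to a yeast enzyme that completes diphthamide on an elongation factor of translation. The long share of event 8658 was 99.6%, 99.5% and 99.8% in WT at week 5 and 51.4%, 51.7% and 55.8% at week 18. KO gave 91.0%, 89.3% and 99.4%, and then 88.5%, 89.3% and 87.5%. At week 9 all 6 libraries of both genotypes lay between 99.1% and 99.6%. WT fell by 7.78 (adjusted p = 2.41e-06) and the KO change of -1.43 did not pass (adjusted p = 0.243). The KO effect was -3.58 at week 5 (adjusted p = 0.00928) and 2.77 at week 18 (adjusted p = 0.00127), and no other event tested passed at both ages with opposite signs. The week 5 effect rests on few counts, as the short isoform had 8 of 2065 in WT. KO library 3 of week 5, at 99.4%, lay near the WT libraries. This effect was not followed with single libraries left out. The difference was 6.35 (SE 1.04, adjusted p = 0.00348).

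As for Rbm34, the 3 WT libraries of week 18 stood apart from all others at Atpbd4. They did so in counts as well for Fmn1, which encodes a formin that builds actin filaments, and for Cwc22, which encodes a spliceosome protein. Fmn1 event 8625 gave 2.01 ± 1.58 CPM (± SD, n = 3) in WT at week 18, while the means of the other 5 groups lay between 44.0 and 92.8. Cwc22 event 9303 gave 28.7 ± 3.46 CPM, against means of 233 to 471. In long share these libraries also lay apart from all others, by smaller gaps, at Smek2, Mll5, Itga6 and Nexn, among others. The labels give these libraries only genotype and age, so age and anything else that they share cannot be told apart. The WT changes of Rbm34 and Atpbd4 rest on them. Every other WT change and every difference given here uses the same 3 libraries, so the limit holds for those as well.

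Smek2, now Ppp4r3b, encodes a regulatory subunit of protein phosphatase PP4. Its event 7203 was almost wholly long, with 99.7%, 99.3% and 99.4% in WT at week 5 and 97.9%, 97.99% and 97.4% at week 18, and 99.8%, 99.5% and 99.1% in KO at week 5. In KO at week 18 the short isoform had 4 of 5019 counts, all in library 1. The shift was only 2.20 ± 0.295 percentage points, against a log2 difference of 5.07 (SE 0.82, adjusted p = 0.00348). WT fell by 2.26 (adjusted p = 0.00276) and KO rose by 2.81 (adjusted p = 0.0362), a value that depends on the zeros of 2 libraries.

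Mll5 and Itga6 had a KO effect that passed at week 18 and not at week 5. Mll5, now Kmt2e, encodes a SET-domain protein of chromatin. Event 8599 had a long share of 32.2%, 32.4% and 23.4% in WT at week 5 and 10.8%, 14.4% and 7.39% at week 18. KO gave 21.5%, 28.3% and 31.02%, and then 36.1%, 46.0% and 31.9%. WT was lower and KO higher at week 18, without overlap between ages in either. The difference was 2.53 (SE 0.49, adjusted p = 0.0145), with a WT change of -1.81 (adjusted p = 0.00437) and a KO change of 0.71 that did not pass (adjusted p = 0.271).

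Itga6 encodes an integrin subunit that forms laminin receptors. Event 7077 had a long share of 59.1%, 59.1% and 64.8% in WT at week 5 and 44.0%, 43.9% and 53.1% at week 18. KO gave 66.4%, 59.1% and 64.7%, and then 69.2%, 73.4% and 76.6%. The genotypes overlapped at week 5 and were apart at week 18. The difference was 1.46 (SE 0.34, adjusted p = 0.0432), and the WT change of -0.82 only just passed (adjusted p = 0.0454). The means of its event total were 502 ± 162 CPM in WT at week 5 and 134 ± 11.2 at week 18 (± SD, n = 3), and 364 ± 162 and 128 ± 19.4 in KO.

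Pb1 had 2 events among the 16, which are not independent because the long counts of event 3769 are the short counts of event 4647. The RefSeq names list Pb1 as an older symbol of more than 1 gene, so no role is given. Event 3769 had a long share of 4.01%, 11.3% and 12.1% in WT at week 5 and 1.92%, 2.33% and 2.25% at week 18. KO gave 60.3%, 53.0% and 43.9%, and then 67.7%, 82.7% and 77.2%. WT fell by 2.05 (adjusted p = 0.00946) and KO rose by 1.55 (adjusted p = 0.0483), a difference of 3.60 (SE 0.62, adjusted p = 0.00485). Neither genotype overlapped between ages.

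Event 4647 moved the other way, as its short isoform is the shared one. Its long share was 56.4%, 40.1% and 41.2% in WT at week 5 and 61.1%, 53.9% and 67.0% at week 18, against 15.2%, 17.8% and 20.4% and then 10.6%, 8.68% and 10.9% in KO. The difference was -1.84 (SE 0.42, adjusted p = 0.0380). Neither the WT change of 0.88 (adjusted p = 0.0936) nor the KO change of -0.96 (adjusted p = 0.0738) passed.

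1700012B15Rik is a long non-coding RNA listed by RefSeq as Rab10os, on the strand opposite Rab10, and how strand was handled is not given in the sources used here. Event 8621 had a long share of 91.3%, 81.4% and 84.7% in WT at week 5 and 96.5%, 93.8% and 94.9% at week 18. KO gave 30.5%, 32.2% and 51.0%, and then 21.3%, 12.2% and 8.06%. KO fell by 1.92 (adjusted p = 0.0362), the WT change of 1.65 did not pass (adjusted p = 0.114), and the difference was -3.56 (SE 0.77, adjusted p = 0.0321). Neither genotype overlapped between ages.

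**Figure D2:**
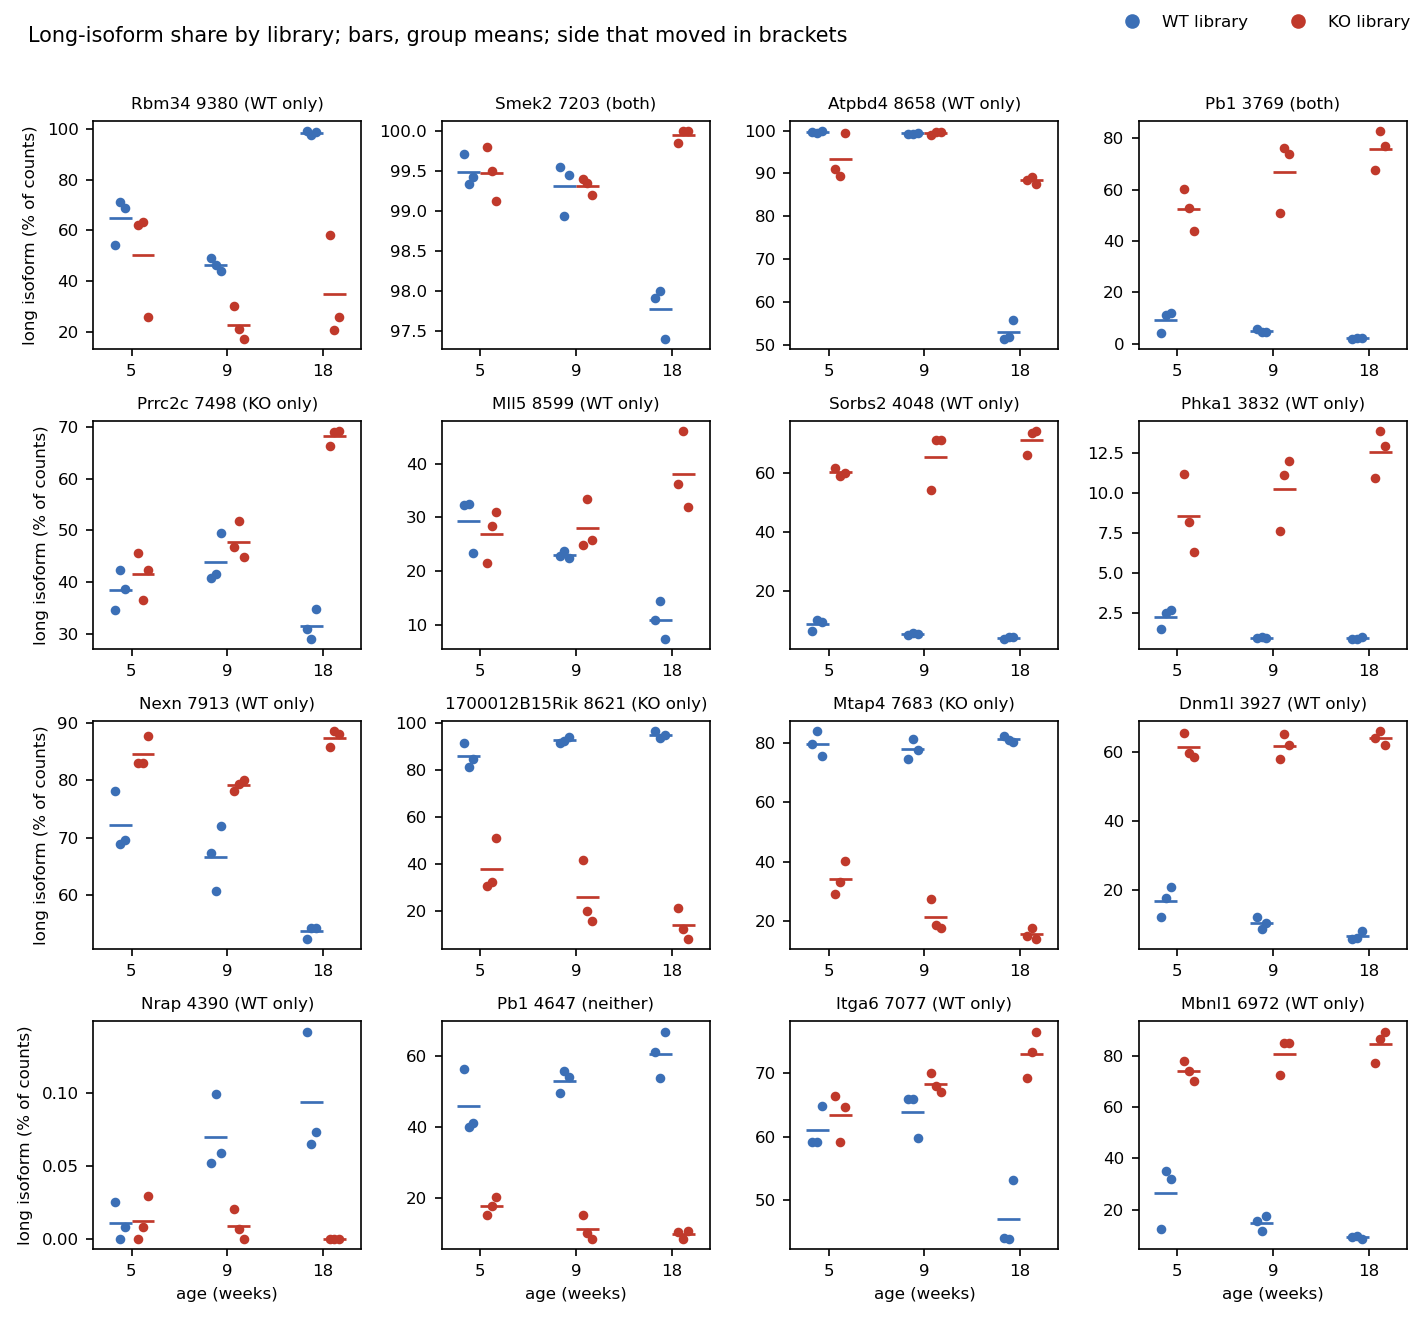
Long-isoform share (percent of the event's counts) of the 16 events by age in weeks, with a point for each library and a bar for the mean of 3 libraries; the axes differ between panels and do not all start at 0. At week 18 the genotypes did not overlap in any of the 16. The WT points of that age stand away from all other points by the widest gaps in Atpbd4 and Rbm34. They do so by smaller gaps in Smek2, Mll5, Itga6 and Nexn, among others.

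At week 18 the genotypes did not overlap in long share in any of the 16 events, as in 36.6% of all events tested. At week 5 they did not overlap in 10 of the 16, and in 25.4% of all. Between ages, WT did not overlap in 13 of the 16 and KO in 10, against 28.1% and 22.6% of all events tested. These shares contain the libraries that selected the events and are given as a description.

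The KO effect at each age showed 3 forms among the 16. For 9 events it passed at both ages and was larger at week 18 (both Pb1 events, Sorbs2, Phka1, Nexn, 1700012B15Rik, Mtap4, Dnm1l and Mbnl1). For 6 it passed at week 18 and not at week 5 (Rbm34, Smek2, Prrc2c, Mll5, Nrap and Itga6), and Atpbd4 reversed. In log2 ratio, the size of the effect was larger at week 18 in 15 of the 16 and smaller in Atpbd4, and none passed at week 5 alone. In long share, the KO minus WT difference of Atpbd4 was larger at week 18, at 35.4 percentage points against -6.37 at week 5. Over all events tested, the KO effect passed for 205 (10.1%) at week 5 and 395 (19.4%) at week 18. Of the 226 events that passed at week 18 and not at week 5, only 6 passed the test of the difference, so for the others a change of the effect with age was not shown. Among all events that passed at both ages with 1 sign, the effect was larger at week 18 in 138 and smaller in 30.

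The libraries of week 9 enter neither side of the difference. The KO effect at week 9 lay between those of weeks 5 and 18 in 15 of the 16, and in 38.2% of all events tested. Nexn was the exception, with 0.92 at week 9. A wide gap between weeks 5 and 18 leaves more room between them, so this count is a description. In 9 events the week 9 effect was nearer to week 5, as for Prrc2c (0.19, 0.21 and 2.21 at weeks 5, 9 and 18) and Itga6 (0.15, 0.29 and 1.61). In 7 it was nearer to week 18, as for Phka1 (2.04, 3.53 and 3.94) and Mbnl1 (3.11, 4.64 and 5.75).

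**Figure D3:**
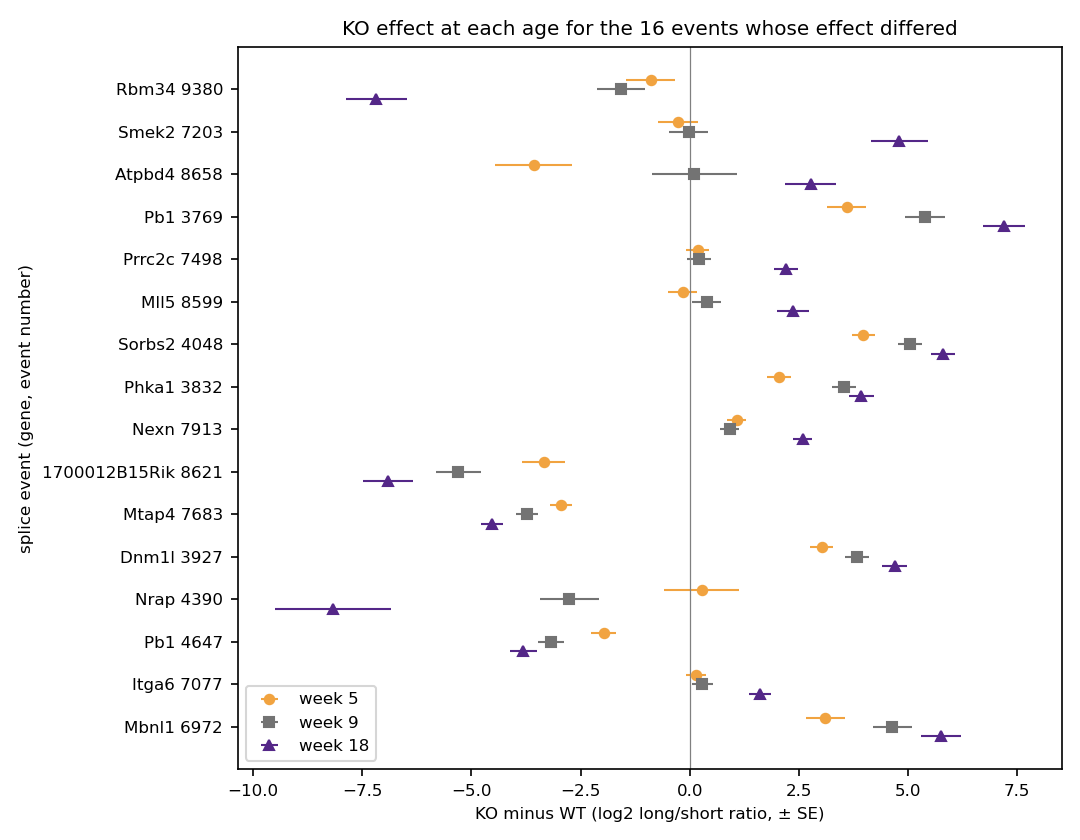
KO effect (KO minus WT, log2 long to short ratio) at weeks 5, 9 and 18 for the 16 events, as fitted values ± SE from 3 libraries per group. Symbols to the right of 0 mean more long isoform in KO; Atpbd4 crosses 0 between weeks 5 and 18, while Prrc2c, Itga6 and Smek2 sit near 0 until week 18.

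Events picked by week 9 alone had, for the most part, larger KO effects at week 18 than at week 5. The KO effect passed for 343 events at week 9 (16.9%), a contrast of the week 9 libraries whose filter and estimate of spread came from all 18. Signed by their week 9 direction, their median KO effect was 1.16 (log2) at week 5 and 1.75 at week 18, and it was larger at week 18 in 261 (76.1%). Of the 1689 events that did not pass at week 9, 52.6% were larger at week 18. Values shifted on both sides: WT moved away from KO in 62.4% of the 343 and KO moved further from WT in 68.2%, with median changes of -0.32 in WT and 0.27 in KO. The same 2 shares were 47.7% and 56% in the 1689. The WT change passed in the direction away from KO for 36 of the 343 and towards it for 10, and the KO change passed further for 24 and back for 3. In the 1689, the WT change passed away for 27 and towards for 42, and the KO change further for 29 and back for 16. Only 10 of the 343 passed the test of the difference, beside 6 of the 1689.

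By direction, the medians of both sides were as follows, still signed by the week 9 effect. A positive change is thus one in the direction of the KO effect at week 9. Where KO had more long isoform (162 events, 7.97% of those tested), the median KO effect went from 0.94 to 1.57, with median changes of -0.21 in WT and 0.50 in KO. Where KO had less (181 events, 8.91%), the median size went from 1.33 to 1.91, with -0.43 in WT and 0.11 in KO. In this set the long to short ratio itself therefore rose in WT and fell in KO at the median. Without this signing, the median KO change of all events was 0.179, and it was -0.11 with TMM and -0.05 with size factors per isoform column. No difference between the directions was tested, and these medians were not recomputed under other scalings.

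Within each age, the KO library with the most Rbfox2 counts had the smallest median effect over the 343 events. At week 5 the medians were 1.28, 1.24 and 0.92 in libraries 1 to 3, with 41.3, 44.8 and 93.2 CPM of Rbfox2. At week 18 they were 1.61, 1.84 and 1.67, with 44.4, 19.1 and 18.0 CPM. All 3 libraries of week 18 lay above all 3 of week 5, and the part of the remaining Rbfox2 was not tested. Without KO library 3 of week 5, 249 of the 343 were larger at week 18.

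**Figure D4:**
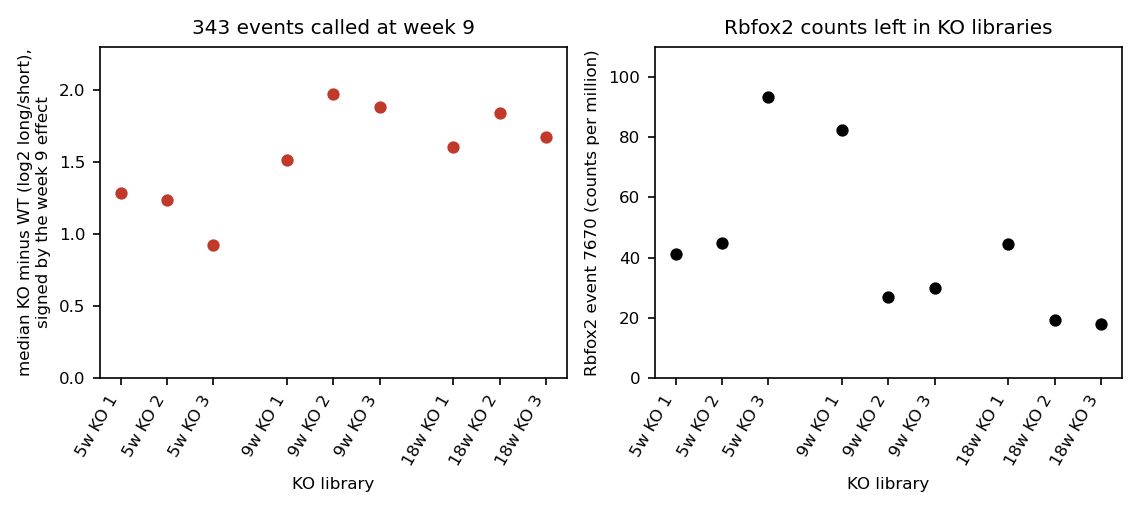
Left, median KO minus WT log2 ratio over the 343 events that passed at week 9, signed by their week 9 effect, for each KO library; right, counts per 1000000 of Rbfox2 event 7670 in the same libraries. The week 18 libraries lie between 1.61 and 1.84 and the week 5 libraries between 0.92 and 1.28; the week 9 libraries chose the events and are drawn for reference.

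Rbfox1, a paralog that can act on the same exons, was followed through events filed under its older symbol A2bp1 and event 8248 under its current one. The most counted of these (A2bp1 4130) went in WT from 293 ± 57.4 CPM at week 5 through 430.2 ± 24.9 at week 9 to 541 ± 72.7 at week 18 (± SD, n = 3), and in KO it stood at 65.0 ± 10.9, 77.0 ± 39.4 and 76.6 ± 35.9. Its KO effect on the total was not shown to differ between weeks 5 and 18 (log2 -0.70, SE 0.41, adjusted p = 0.579). The ranges of WT and KO of event 4130 did not overlap at any age. A2bp1 events 5001 and 3792 had differences of -0.98 (SE 0.40, adjusted p = 0.368) and -0.998 (SE 0.50, adjusted p = 0.476). Event 8248 did not pass the filter and was not tested. Its means were 25.1 CPM at week 5 and 49.8 at week 18 in WT, and 7.78 and 10.2 in KO.

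Read by gene group, the events that passed were spread over 6 of 10 lists, with at most 1 higher and 1 lower in each, beside 0.787% of all events tested. Shares from such small counts were not compared between lists. Of 91 cytoskeletal events, Sorbs2 was higher and Mtap4 lower, and the median difference was 0.16 against 0.11 over all events tested. Of 15 events of the sarcomere and Z disc, Nexn was higher and Nrap lower (median 0.79). Of 51 events of splicing regulators, Mbnl1 was higher and Rbm34 lower (median 0.19), and of 48 events listed under chromatin and transcription only those under the ambiguous name Pb1 passed (median 0.26). Dnm1l was the only one of 37 trafficking events (median 0.22) and Itga6 the only one of 28 adhesion events (median 0.36).

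None of 23 events of calcium handling passed (median -0.33), nor of 38 of signalling (median -0.08), 12 of mitochondria and metabolism (median 0.08) or 4 of markers of other cell types (median 0.37). The KO effect at week 18 alone passed for 19.4% of all events. It passed for 66.7% of the mitochondrial events (8 of 12), 53.3% of the sarcomere events (8 of 15), 42.9% of the cytoskeletal and of the adhesion events, 40.5% of trafficking and 34.8% of calcium handling. It passed for 27.1% of the chromatin, 23.7% of the signalling and 23.5% of the splicing regulator events, and for none of the 4 events of other cell types. Smek2, Atpbd4, Prrc2c, Mll5, Phka1 and 1700012B15Rik were in no list. The lists do not hold every gene of a role, so a list without a passing event does not show that none passed. Smek2 and Phka1 encode subunits of a phosphatase and a kinase but were not in the signalling list. Mll5 was not in the chromatin list, and Dnm1l, which acts on mitochondria, was listed under trafficking.

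None of the other events tested in these genes passed. Of 6 further Sorbs2 events, event 4678 had a KO effect of -3.28 at week 5 and -3.79 at week 18 (adjusted p of the difference 0.585). Mbnl1 events 3966 and 4569 had differences of 0.18 and 0.19 (adjusted p = 0.929 and 0.954). Mtap4 event 4206 had a difference of 1.15 (adjusted p = 0.589).

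Among the events just outside the threshold was one of Vegfa. Vegfa, an endothelial growth factor, went in event 9369 from 61.8%, 46.6% and 42.2% to 76.0%, 75.6% and 75.9% in WT (adjusted p of the WT change 0.000576), while the difference of -1.47 missed the threshold (adjusted p = 0.0544).

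The total counts of an event, a measure that the isoform ratio does not use, differed in KO effect between the ages for 12 of the 2032 events (0.591%), and for 221 at an unadjusted p under 0.05. Of the 16 events, 1 was among the 12, Pb1 4647 (log2 1.85, SE 0.31, adjusted p = 0.00385), whose total contains the counts of the long isoform of event 3769. One more of the 16 had an unadjusted p under 0.05.

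Single libraries and the scaling decided how many events passed. Rbm34, Smek2, Atpbd4 and Pb1 3769 passed without each of the 12 libraries in turn and under every other setting tried. The other 12 did not pass without WT library 1 or without KO library 2 of week 18, either of which left 4 events. Nor did they pass with TMM factors for each isoform column, which scale the long and the short counts of a library separately. Over these 12, the largest adjusted p without a single library ranged from 0.0560 for Prrc2c to 0.355 for Nrap. In the other direction, 51 events passed without WT library 1 of week 5, all 16 among them. The change of the side that moved passed without each of the 12 libraries in turn for WT in Rbm34, Atpbd4, Smek2, Dnm1l, Nexn and Mll5, and for KO in Prrc2c and Mtap4. For the sides named in Pb1 3769, Sorbs2, Phka1, Nrap, Mbnl1, Itga6 and 1700012B15Rik, and for the KO side of Smek2, at least 1 library left out ended the call. Other settings also left WT as the only side that moved where both are named. The KO change did not pass for Pb1 3769 with limma, TMM, size factors per isoform column or no minimum count, nor for Smek2 with DESeq2, TMM, size factors per isoform column or the 12 libraries alone. Calls of a single side were lost too. The WT change passed in 4 of 10 other settings for Itga6 and in 6 of 10 for Nrap, and not with limma for Mbnl1. The KO change did not pass for 1700012B15Rik with limma or TMM, nor for Prrc2c with TMM.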

How the data were processed

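RASL-seq was run on cardiac myocytes of both genotypes at 5, 9 and 18 weeks, with 3 library columns for each. Per the file headers, the authors deposited unnormalised short- and long-isoform counts for each event. The submitters' processing notes list Bowtie 0.12.7, cutadapt 1.2.1 and mm9 with no stated role, and no coordinates are given here. The other samples of the series were not analysed here.

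Events averaging 20 or more counts per library, with an average of 1 or more for each isoform, entered edgeR 4.0.16 (R 4.3.3, quasi-likelihood, robust). Long and short counts of a library were 2 columns, with a term per library and isoform by group terms, and all 18 libraries shared 1 fit. No factor was applied between isoform columns. Event totals were fitted with TMM factors. P-values were adjusted by Benjamini-Hochberg over all 2032 events. A contrast of terms gave each KO effect, each change with age and the difference. DESeq2 1.42.0, limma 3.58.1 (pseudocount 0.5), other scalings, other filters, a replicate block and each library left out were alternatives. The steps were tested on simulated data.

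The long share is not a share of RNA molecules, since probe pairs can ligate unequally. Amplified counts carry no molecular identifiers and are not independent, so limits from a count of 0 cover counting error only. Pairs of libraries of a group differed by a chi-square of 5.84 to 62.0 per degree of freedom, above sampling noise, and were taken as separate. A count column is shared between events in 146 of those tested. Of 1650 gene names, 1365 were current RefSeq symbols, 244 matched only as older ones and 41 matched none. Events were named where they passed with a mean of at least 50 counts, as the largest rises and falls in share and the first of each list, besides events of Rbfox2 and Rbfox1. Fmn1, Cwc22, Vegfa and the further events of the same genes were named after their values were seen. The members, lists and tests were chosen with earlier results of these data known.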

Additional observations from a re-analysis of the deposited data

Results flagged for a closer look

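The KO effect at week 18 differed from that at week 5, by edgeR's quasi-likelihood test of the difference itself, for the 16 events of the report. On the log2 scale the difference was 6.35 for Atpbd4 8658, 5.07 for Smek2 7203, 3.60 for Pb1 3769, 2.64 for Mbnl1 6972 and 2.53 for Mll5 8599. It was 2.02 for Prrc2c 7498, 1.89 for Phka1 3832, 1.83 for Sorbs2 4048, 1.67 for Dnm1l 3927, 1.51 for Nexn 7913 and 1.46 for Itga6 7077. Towards the short isoform it was -8.45 for Nrap 4390, -6.28 for Rbm34 9380, -3.56 for 1700012B15Rik 8621, -1.84 for Pb1 4647 and -1.59 for Mtap4 7683. No group of 3 libraries was tested for a library far from the others.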

How the results depend on the processing

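The 16 differences and the changes named for their moving side kept their direction under every setting that gave a value. The count of events with a different KO effect was 29 with DESeq2, 9 with limma and 4 with TMM factors for each isoform column, against 16 (11 higher, 5 lower). TMM factors moved the median difference of all events from 0.107 to -0.09, and the counts to 57 for the WT change and 15 for the KO change. With size factors per isoform column 15 passed, 8 higher and 7 lower, and the splits went from 71 higher and 44 lower to 48 and 54 for the WT change and from 58 and 14 to 34 and 28 for the KO change. Leaving out 1 library in turn gave 4 to 51 differences, 29 to 174 WT changes, 22 to 87 KO changes and 5 to 40 differences in event total, which was 30 with DESeq2. The week 9 choice gave 248 to 265 of its events larger at week 18 over all settings. The looser reading of the filter, chosen after seeing the data, left 15. A pairing of the genotypes by library number was not shown, with correlations of -0.05 to 0.14. Only replicate 1 of week 18 was above the 0.1 set for a pairing. The replicate block, by library number over all groups, gave 19 and does not test a pairing within an age. Dnm1l 3927 and Pb1 4647 had no value with 1 event kept per shared column. The cause of these shifts was not tested. Low counts limit Nrap, Smek2 and the WT values of Atpbd4 at week 5.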

Other observations

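Some events passed the test of the KO effect on total counts and not that on the isoform ratio. Myo6 event 8360, of a motor that walks towards the minus end of actin, had 43.7 ± 14.4 CPM (± SD, n = 3) in WT at week 5 and 15.5 ± 1.11 at week 18, against 83.4 ± 10.8 and 117 ± 5.68 in KO. The KO effect on the total differed by 1.91 (log2, SE 0.28, edgeR adjusted p = 0.00091), and the ratio did not pass (adjusted p = 0.658). Prune2 event 7968 was higher at week 18 in both genotypes, going from 8.42 ± 0.832 to 79.9 ± 7.82 CPM in WT and from 44.0 ± 2.91 to 123 ± 24.4 in KO, so that its KO effect was smaller at week 18 (difference -1.79, SE 0.30, adjusted p = 0.00385). Mbnl1 event 4569 went from 22.01 ± 6.96 to 9.7 ± 2.29 CPM in WT and from 50.4 ± 6.22 to 83.2 ± 29.04 in KO (difference 1.83, adjusted p = 0.0389). Fmn1 and Cwc22, whose WT totals of week 18 stood apart, had differences of 6.15 (adjusted p = 2.89e-09) and 3.39 (adjusted p = 6.16e-06). Among others, Bcor, Cpeb2, Ythdf3 and Iqce were also higher in KO relative to WT at week 18 than at week 5, and Trpm3 lower. The named events of this paragraph were chosen after their values were seen.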
